A study of Bos taurus with 6 samples.

Results

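The ligands, receptors and first relays of insulin and insulin-like growth factor (IGF) signaling were examined in intramuscular fat (IMF) of castrated and intact male Qinchuan cattle, a Chinese beef and draught breed. The 10 genes were IGF1, IGF2, IGF1R, IGF2R, INSR, IRS1, IRS2, GHR, AKT1 and AKT2, and each was taken as the row of the mRNA count table that carries its symbol. Of the 25444 genes in the table, 8 matched by symbol. IRS2 is listed as LOC100300012, the gene number that RefSeq gives to IRS2, so that 9 of the 10 are described. AKT1 was not analysed here.

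IMF was dissected from the sternomandibularis muscle of the neck at 24 months of age. All the animals came from the same sire, were weaned at 3 months and received the same diet. The steers had been castrated surgically at 6 months, and the bulls were left intact. mRNA was sequenced in 1 pooled library per group and small RNA in 2 libraries per group. The number of animals in a pool is given in different ways: the series' design text gives 6 animals per mRNA library and 3 per miRNA library, whereas the sample labels give 3 and 1. The steer mRNA library held 12677375 counts with a read in 16793 genes, and the bull library held 9868415 counts with a read in 16546 genes. With 1 mRNA library per group the spread between animals is unknown. The mRNA comparisons below are therefore between 2 pooled libraries, carry no p-value, and come with 95% Clopper-Pearson intervals that cover counting error alone.

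Insulin and the IGFs are related hormones that act through the paired tyrosine kinase receptors INSR and IGF1R. The activated receptors phosphorylate docking proteins of the IRS family, which recruit phosphoinositide 3-kinase and thereby switch on the AKT kinases. AKT in turn holds the FOXO transcription factors out of the nucleus and favours glucose uptake, fatty acid synthesis and protein synthesis, and in fat it restrains lipolysis. Growth hormone stands above the IGF branch, since its receptor GHR drives IGF1 transcription in liver, fat and muscle.

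None of the 9 genes differed 2-fold between the steer and bull libraries. A gene was counted as past 2-fold when its log2 fold change (log2FC, steer over bull, after scaling by median-of-ratios size factors and with 0.5 added to each count) was over 1 in size and its interval excluded equal levels. By this rule 0 of 9 were higher and 0 of 9 lower in steers, against 5.65% higher (822 genes) and 10.2% lower (1485 genes) of the 14540 genes with at least 10 counts over both libraries. With only 9 genes, counts of 0 at 2-fold do not set them apart from these shares. At a threshold of 1.5-fold the counts were again 0 and 0 of 9, where 12.2% of tested genes were higher and 15.8% lower, but other scalings placed GHR past 1.5-fold lower, as given with the scalings below. The median log2FC of the 9 was -0.03, beside 0.01 over all tested genes, and the median size of the change was 0.25, beside 0.38. The interval lay wholly within 2-fold in either direction for 9 of 9 genes in the main scaling, as it did for 60.4% of tested genes, and for 8 of 9, without IRS2, in 3 of the 6 scalings. It excluded equal levels for 3 of 9 (GHR, IRS1 and IGF2R), beside 52.4% of tested genes, and this count turned with the scaling. Except for IGF1 and IRS2, the 9 had more counts than at least 71.1% of tested genes. Genes of few counts have wider intervals and less certain fold changes, so the medians and shares over all tested genes are not matched for depth. Because whole tissue was sequenced, fewer cells of a type and less RNA per cell cannot be told apart in any of these values.

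**Figure D1:**
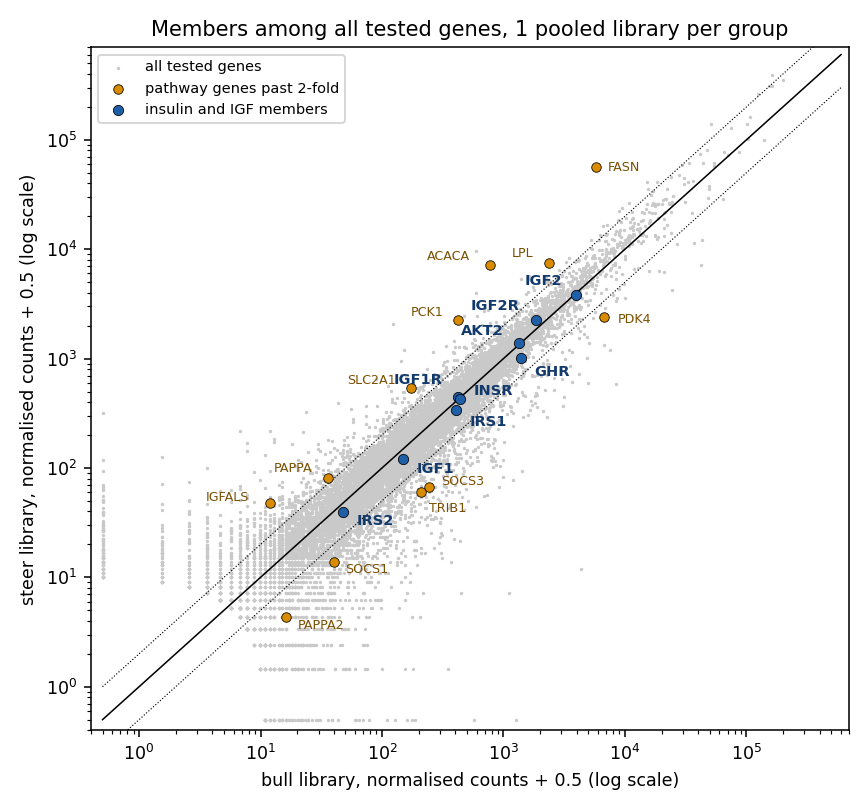
Normalised counts (with 0.5 added, log scales) of each tested gene in the bull library (x axis) and the steer library (y axis), with the 9 insulin and IGF genes in blue and the genes of the surrounding pathway lists that were past 2-fold in orange. The solid line marks equal levels and the dotted lines 2-fold differences, and all 9 blue points lie between the dotted lines while FASN and ACACA lie far above them.

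Among the ligands, IGF2, the fetal growth factor that stays expressed in adult cattle, had 4016 counts in steers and 3760 in bulls. After scaling these were 3850 and 3923 normalised counts, a log2FC of -0.03 (interval -0.09 to 0.04). Only 4.27% of tested genes had a smaller change in size, and the interval was among the narrow ones because 97.3% of tested genes had fewer counts than IGF2. IGF1, the main effector of growth hormone, was much more thinly covered, with 125 counts in steers and 142 in bulls. Its 120 and 148 normalised counts gave a log2FC of -0.31 (-0.66 to 0.05), which included equal levels. Scaled by total counts the log2FC was -0.54 (-0.90 to -0.19) and equal levels were excluded, so whether IGF1 differed depended on the scaling as well as on its depth. INS, the insulin gene itself, which is made in pancreatic islets, had 0 reads in either library. A count of 0 allows up to 0.237 CPM (counts per 1000000 counts of the library) in the steer library and 0.304 CPM in the bull library.

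The surroundings of IGF2 were read from the RefSeq gene order (ARS-UCD2.0), which was used for order and overlap alone. INS lies just before IGF2, the microRNA gene MIR483 lies within it, and H19, an imprinted long non-coding RNA that is expressed from the other parental allele, follows after a pair of long non-coding genes. H19 was looked at after its values were seen. It had 790 counts in steers and 582 in bulls (log2FC 0.32, 0.16 to 0.48). The ratio of IGF2 to H19 counts was 5.08 in steers and 6.46 in bulls, and the ratio of these ratios was 0.787 (0.699 to 0.885), a value that does not depend on how the libraries are scaled. MIR483 had 0 reads in the mRNA table and its mature product is given with the miRNAs below.

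The receptors differed in direction, and by small amounts. GHR, the growth hormone receptor, showed the largest change of the 9 genes, with 1054 counts in steers and 1333 in bulls. The corresponding 1010 and 1391 normalised counts gave 0.727-fold, or a log2FC of -0.46 (-0.58 to -0.34), and 57.0% of tested genes had a smaller change in size. IGF2R, the mannose 6-phosphate receptor that carries IGF2 to lysosomes for breakdown, was at 2349 counts in steers and 1791 in bulls. Its log2FC of 0.27 (0.18 to 0.36) was the highest among the 9, although it fell to -0.03 when the libraries were scaled by ACTB and RPS18. IGF1R, the signaling receptor for both IGFs, had 461 and 401 counts with a log2FC of 0.08 (-0.12 to 0.28). INSR, the insulin receptor, had 448 and 421 counts with a log2FC of -0.03 (-0.23 to 0.16). For IGF1R and INSR the intervals included equal levels in this scaling and were narrow enough to leave out a 1.5-fold difference between these libraries.

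**Figure D2:**
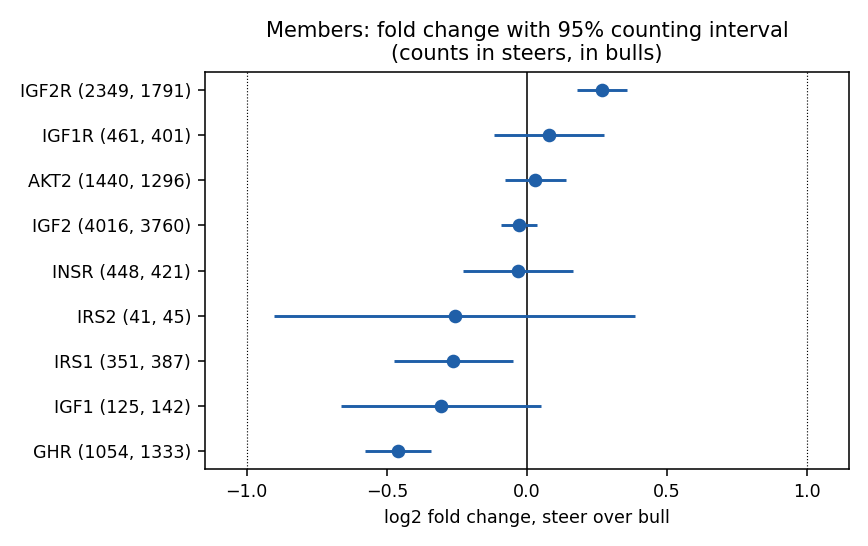
Log2 fold change (x axis, steer library over bull library) of the 9 genes, with the counts in the steer and bull libraries in parentheses. Points are the estimates, lines the 95% counting intervals and dotted lines 2-fold differences; GHR lies lowest at -0.46, IGF2R highest at 0.27, and IRS2 with 41 and 45 counts has the widest interval.

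Of the docking proteins, IRS1 was at 351 counts in steers against 387 in bulls, or 336 and 404 normalised counts. Its log2FC was -0.26 (-0.48 to -0.05). IRS2, which couples the same receptors to AKT, had 41 and 45 counts, and its log2FC of -0.25 (-0.90 to 0.39) was the least certain of all. AKT2, the AKT kinase most closely tied to insulin-stimulated glucose uptake, was at 1440 counts in steers against 1296 in bulls with a log2FC of 0.03 (-0.08 to 0.14).

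Ratios between genes within a library do not depend on the scaling. For each pair the steer ratio divided by the bull ratio is given with an exact conditional 95% interval of the table of counts. The counts were not divided by gene length, so the ratios are compared between libraries and not read as relative levels of the paired genes. GHR to IGF1R fell outside equality, with a ratio of 2.29 in steers and 3.32 in bulls and a ratio of ratios of 0.688 (0.586 to 0.807). The other fixed pairs included equality. IGF1 to IGF2 was 0.0311 and 0.0378, with a ratio of ratios of 0.824 (0.640 to 1.06). IGF1R to INSR was 1.03 and 0.952, with a ratio of ratios of 1.08 (0.891 to 1.31). IGF2R to IGF1R was 5.10 and 4.47, with a ratio of ratios of 1.14 (0.982 to 1.33). IRS1 to IRS2 was nearly the same in both libraries, at 8.56 and 8.60 (ratio of ratios 0.995, 0.621 to 1.60). IGF1 to GHR, chosen after the values were seen, was 0.119 in steers and 0.107 in bulls (1.11, 0.856 to 1.45).

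The scaling of the libraries moved the center of all fold changes. Relative to the scaling used, total counts shifted the median of all tested genes by -0.24, ACTB and RPS18 by -0.30 and total counts without the 10 genes of most counts by -0.14, while TMM (-0.02) and upper quartile (-0.01) hardly moved it. GHR, IGF1, IRS1, IRS2, IGF2 and INSR had log2FC values below 0 in each of these scalings. IGF1R and AKT2 were above 0 in the main, TMM and upper-quartile scalings and below 0 in the others. The 9 genes spanned -0.46 to 0.27 in the main scaling, -0.70 to 0.03 with total counts and -0.76 to -0.03 with ACTB and RPS18, and none was past 2-fold in any of them. At 1.5-fold, GHR was lower in steers with total counts and with totals without the top 10 (1 of 9, beside 24.3% and 20.5% of tested genes lower), and GHR and IGF1 were with ACTB and RPS18 (2 of 9, beside 27%). The interval excluded equal levels for IGF2R, IRS1 and GHR with the main, TMM and upper-quartile scalings. With total counts it did so for 6 of 9 (IGF1, IGF2, INSR, IRS1, GHR and AKT2, beside 55.1% of tested genes) and with ACTB and RPS18 for 7 of 9 (those 6 and IGF1R, beside 57.3%), each of them lower in steers. With totals without the top 10 it did so for 6 of 9 (beside 52.5%), of which IGF1, IGF2, IRS1, GHR and AKT2 were lower in steers and IGF2R was higher (0.13, 0.04 to 0.22). Over all genes, 35.6% of those past 2-fold were higher in steers in the main scaling, 21.7% with total counts and 19.2% with ACTB and RPS18.

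The genes that surround these 9 in the pathway were examined as 7 lists. Each gene counted once, 97 were listed, 94 were in the table, 87 reached 10 counts, and 7 of those were past 2-fold higher and 5 past 2-fold lower in steers, where 5.65% of all tested genes were higher and 10.2% lower. The median log2FC over the 87 was -0.01. IGFBP1, PNPLA2 and SCD were listed and not analysed here.

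In the growth hormone axis outside GHR, 8 of 10 genes were tested, 0 were past 2-fold higher and 2 were lower, with a median of -0.0025. Both of the lower genes were suppressors of cytokine signaling, feedback inhibitors that are induced by many cytokines besides growth hormone. SOCS3 had 69 counts in steers and 233 in bulls (log2FC -1.87, -2.29 to -1.48), and SOCS1 had 14 and 38 (log2FC -1.53, -2.56 to -0.65). SOCS2 and CISH, the members of that family most closely tied to growth hormone and STAT5, stood at 0.21 (-0.13 to 0.56) and 0.20 (-0.08 to 0.48); they were picked out after the values were seen. STAT5A, the transcription factor of the axis with the most counts, had 884 and 746 counts (0.12, -0.02 to 0.27). GH1 and PRLR had 0 reads in either library.

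Among 13 genes listed as adaptors and docking proteins, with the ligand gene INS counted among them, 9 were tested. Of these, 0 were past 2-fold, with a median of 0.02 and a range of -0.64 to 0.76. SHC1, which links the receptors to the RAS and MAP kinase branch, had the most counts, 3664 in steers and 1984 in bulls (0.76, 0.68 to 0.84). INS and IRS4 had 0 reads in either library. All 26 kinases and kinase targets below the substrates were tested and 0 were past 2-fold in the main scaling; 13 lay above 0 and 13 below, with a median of 0.0043. FOXO1, the factor that AKT keeps out of the nucleus, had 2230 counts in steers and 1337 in bulls (0.62, 0.52 to 0.71). The lowest value in this list was -0.77 and the highest 0.62. TBC1D1 was past 2-fold lower with total counts, and TBC1D1 and PRKCI were with ACTB and RPS18.

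Of the 12 brakes on the pathway, which are mostly phosphatases and AKT inhibitors, 12 were tested, 0 were past 2-fold higher and 1 was lower, and the median was -0.43. The lower gene was TRIB1, a pseudokinase, with 62 counts in steers and 201 in bulls (-1.81, -2.25 to -1.40). ENPP1, a membrane enzyme known to bind and inhibit the insulin receptor, had the most counts, 2767 and 1572 (0.69, 0.60 to 0.78).

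The carriers of IGF and their proteases had a median of 0.50 over the 10 tested of 11 in the table, with 2 past 2-fold higher and 1 lower in steers. IGFALS, the acid-labile subunit that holds IGF in the large circulating complex, had 49 counts in steers and 11 in bulls (1.98, 1.07 to 3.13). PAPPA, a protease that frees IGF by cutting IGFBP4, had 84 and 34 counts (1.17, 0.59 to 1.80), and it was no longer past 2-fold under total counts or ACTB and RPS18. Its relative PAPPA2 was lower in steers on only 4 and 15 counts. IGFBP6, a binding protein that prefers IGF2, had by far the most counts of the list, 32599 in steers and 15796 in bulls (0.92, 0.90 to 0.95).

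**Figure D3:**
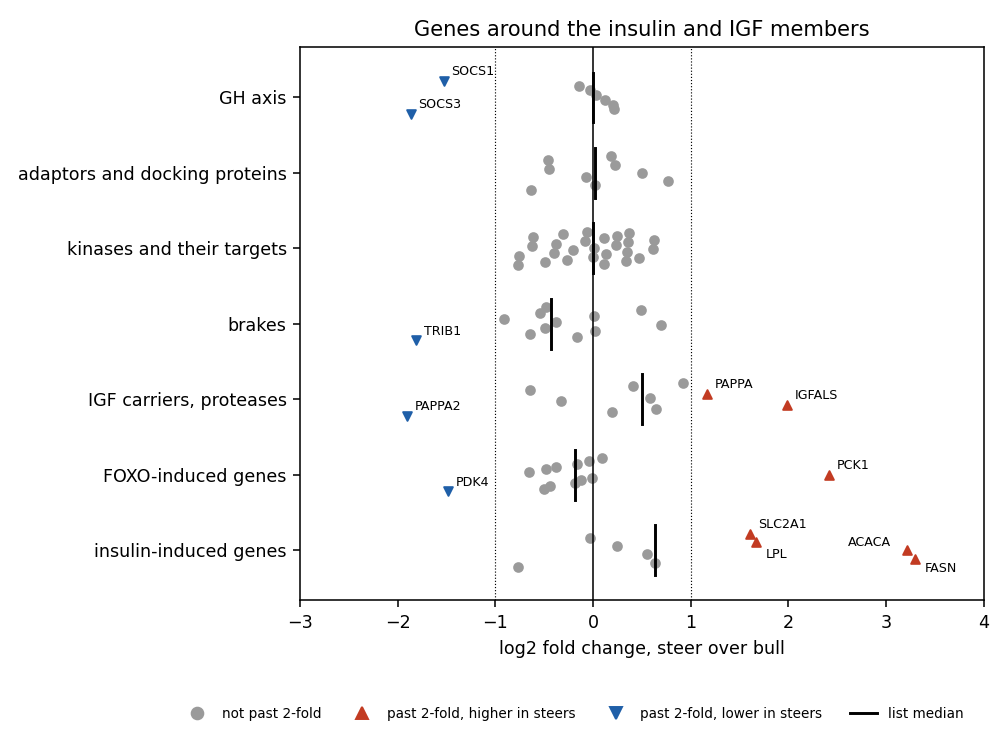
Log2 fold change (x axis, steer library over bull library) of each tested gene in the 7 pathway lists (rows). Upward and downward triangles mark genes past 2-fold in the main scaling, grey points the others and black bars the list medians. The adaptor and kinase lists show no triangle, while the insulin-induced list holds 4 upward ones.

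The transcripts known to respond to the pathway included the largest differences of these lists. Of 9 tested genes that insulin is known to induce, 4 were past 2-fold higher and 0 lower, with a median of 0.63. Of all tested genes 5.65% were higher and 10.2% lower. The list was chosen with earlier results of these data known. EGR1 was past 2-fold lower with total counts and with ACTB and RPS18. FASN, fatty acid synthase, had 58834 counts in steers and 5496 in bulls (log2FC 3.30, 3.26 to 3.34). ACACA, which makes the malonyl-CoA that FASN uses, had 7423 and 735 counts (3.21, 3.10 to 3.33). LPL, which releases fatty acids from lipoproteins for uptake, had 7811 and 2253 (1.67, 1.60 to 1.74), and the glucose transporter SLC2A1 had 557 and 167 (1.61, 1.36 to 1.87). These 4 genes are ones of lipid synthesis, lipid uptake and basal glucose entry. Other listed insulin-induced genes had smaller values, among them SREBF1, the lipogenic transcription factor (0.25, 0.15 to 0.34), SLC2A4, the insulin-regulated glucose transporter (0.63, 0.36 to 0.92), and the early response gene EGR1 (-0.77, -0.86 to -0.68); these 3 were named after the values were seen.

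Of 13 tested genes that FOXO factors are known to induce and insulin to repress, 1 was past 2-fold higher and 1 lower, 11 lay below 0, and the median was -0.18. The 2 genes past 2-fold went opposite ways. PDK4, which keeps pyruvate out of oxidation, had 2495 counts in steers and 6424 in bulls (-1.49, -1.55 to -1.42). PCK1, which in fat makes the glycerol backbone of triglyceride, had 2337 and 402 counts (2.42, 2.26 to 2.57). TXNIP, an inhibitor of glucose uptake, had the most counts, 39099 and 46860 (-0.38, -0.40 to -0.36).

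Markers of the cell types that IMF may hold also differed between the libraries, and their part in the results above was not tested. Of 7 tested adipocyte markers 0 were past 2-fold higher and 1 (FABP4) lower, with a median of -0.08 and summed levels of 2477 CPM in steers and 3557 CPM in bulls. CIDEC had the most counts in steers and FABP4 in bulls, and all 7 markers were present in both libraries, the lowest being LEP with 1272 counts in steers and 1153 in bulls. ADIPOQ, the gene of the adipocyte hormone adiponectin, had a log2FC of -0.68 (-0.74 to -0.63). PLIN1, which coats the lipid droplet, was at -0.38 (-0.44 to -0.32), and LEP, the gene of leptin, at 0.02 (-0.10 to 0.14). CIDEC was higher in steers, at 0.28 (0.24 to 0.33). FABP4 was at -1.06 (-1.12 to -1.01), LIPE at -0.02 (-0.08 to 0.03) and AQP7 at -0.08 (-0.17 to 0.01). Skeletal muscle markers summed to 2621 CPM in steers and 5016 CPM in bulls, with ACTA1 the most abundant, 1 of 9 (MYH1) past 2-fold higher, 2 (MYH7 and DES) lower and a median of -0.65. With total counts or ACTB and RPS18, MYH1 was no longer past 2-fold and MB joined the lower genes, as MB did with totals without the top 10. Fibroblast and matrix markers summed to 90228 CPM in steers and 54329 CPM in bulls, with COL3A1 the most abundant in steers and COL1A2 in bulls, 2 of 6 (COL1A1 and COL3A1) past 2-fold higher, 0 lower and a median of 0.94. COL1A1 was past 2-fold in the main scaling alone, and COL3A1 in each scaling except ACTB and RPS18. Of the other markers in this list, COL1A2 was at 0.93, LUM at 0.95 and DCN at 0.04. PDGFRA was lower in steers, at -0.48 (-0.57 to -0.40), so the list did not move as 1.

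Immune markers were lower in the steer library. Of 8 myeloid markers 0 were past 2-fold higher and 6 lower (7 with total counts, ACTB and RPS18 or totals without the top 10, which added CSF1R), with a median of -1.70, CSF1R the most abundant and summed levels of 1606 CPM in steers and 4279 CPM in bulls. All 6 T lymphocyte markers were past 2-fold lower, with CD3E the most abundant and summed levels of 7.81 and 69.5 CPM. Their median was -3.43, or -3.29 with CD3G placed at its bound, since CD3G had 0 reads in steers and 34 in bulls and was lower in steers by at least 12.3-fold, taking 3 counts per library as the floor for a 0. B lymphocyte markers summed to 1.89 and 9.42 CPM, with 2 of 3 tested past 2-fold lower, a median of -1.81, CD22 the most abundant, and the defining markers MS4A1 and CD79B at 0 in both libraries. SOCS3, SOCS1 and TRIB1, named above, were lower in steers along with these immune lists.

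Endothelial markers had 0 of 5 past 2-fold, a median of -0.19, PECAM1 the most abundant, and summed levels of 724 and 879 CPM. Erythroid markers summed to 2.92 and 0.709 CPM, with 1 of 2 tested (HBB) past 2-fold higher, a median of 2.47, HBB the most abundant in steers, HBA in bulls and ALAS2 at 0. Hepatocyte markers summed to 42.91 and 21.99 CPM, with 1 of 3 tested (TTR, 339 counts against 22) past 2-fold higher, 1 (FGB) lower, a median of 0.07, TTR the most abundant in steers and APOA1 in bulls. ALB, the defining marker of hepatocytes, which are a major source of IGF1 and IGFALS in the body, was at 0 counts in the steer library and 1 count in the bull library. Epithelial markers summed to 7.73 and 2.84 CPM, with 1 of 2 tested (KRT18) past 2-fold higher, a median of 1.30, KRT18 the most abundant and KRT14 at 0.

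**Figure D4:**
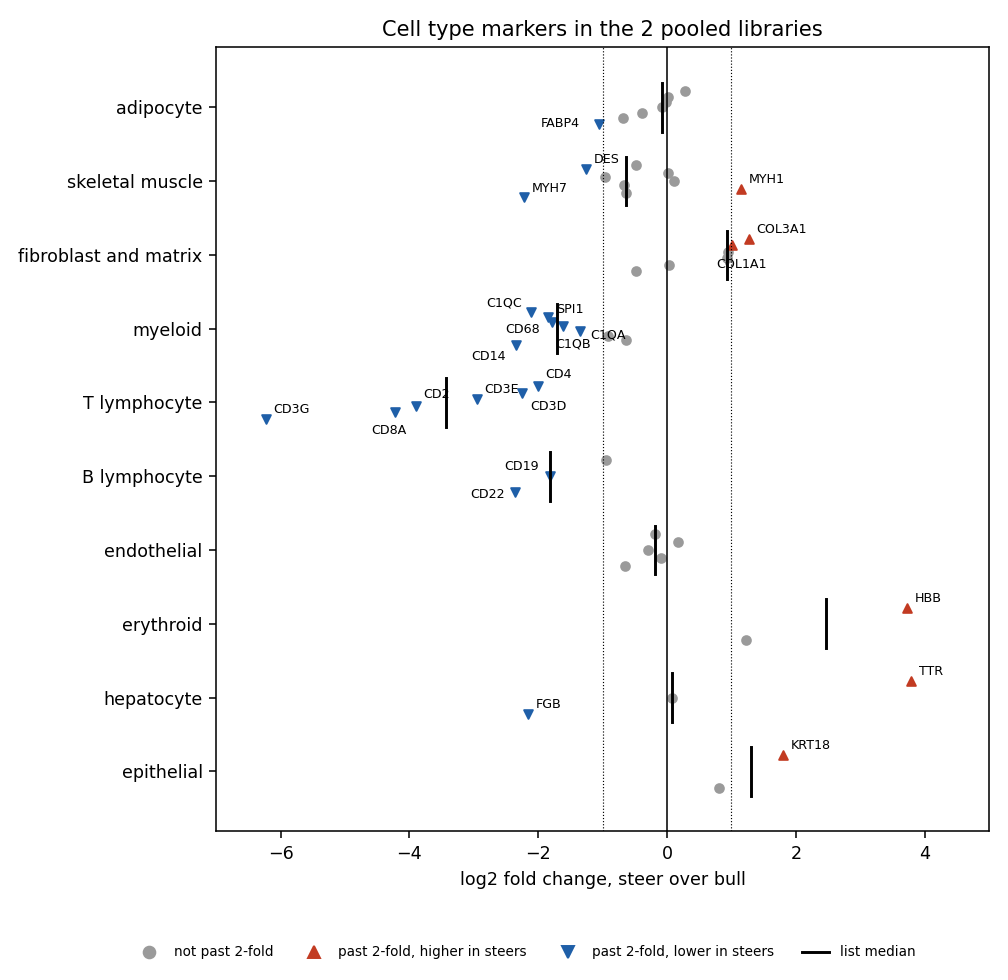
Log2 fold change (x axis, steer library over bull library) of each tested cell type marker, with triangles for genes past 2-fold, grey points for the others and black bars for list medians. All 6 T lymphocyte markers lie to the left of the lower dotted line; CD3G had 0 reads in steers, so the position of its point depends on the 0.5 added to each count.

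The small RNA libraries gave a separate and replicated readout. They held 10452582 and 8859844 counts in the steer libraries and 7784227 and 6556511 in the bull libraries. The list of 20 mature bovine miRNAs comprised miR-483, which is made from within IGF2, and miRNAs that are reported in other species to target the 9 genes or AKT1: the let-7 family, miR-7, miR-145 and miR-223 for IGF1R or IRS genes, miR-1, miR-206 and the miR-29 family for IGF1, miR-126-3p for IRS1, and miR-33a and miR-33b for IRS2. No target site was examined here. The mature sequences of the miRNAs called below, of the let-7 with the most counts and of miR-483, with the seed (bases 2 to 8 from the 5′ end) in capitals and T written for U, are:
miR-223: tGTCAGTTtgtcaaatacccca
miR-33b: gTGCATTGctgttgcattgc
miR-33a: gTGCATTGtagttgcattgca
miR-1: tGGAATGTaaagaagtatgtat
miR-206: tGGAATGTaaggaagtgtgtgg
miR-126-3p: cGTACCGTgagtaataatgcg
let-7i: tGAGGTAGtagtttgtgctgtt
miR-483: tCACTCCTctcctcccgtctt

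The sequences were taken from the supplementary list of known bovine miRNAs that accompanies the series. Those of miR-33a and miR-206 are shown because they share their seeds with miR-33b and miR-1. The 20 miRNAs held 10 seeds, and the 8 members of the let-7 family shared GAGGTAG. Mature sequences that differ at few bases, as within let-7, can share reads, and how such reads were divided is not given in the sources used here.

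Among the 20, all of which passed the abundance filter, 4 were lower and 0 higher in steers (edgeR's quasi-likelihood test, Benjamini-Hochberg adjusted p under 0.05 and log2FC over 1 in size). Of all 1073 sequences tested, 7.08% were higher (76) and 7.08% lower (76). At an unadjusted p under 0.05, 1 of the 20 was higher and 6 were lower, beside 13.7% and 13.6% of all sequences. With total counts in place of TMM, 1 of the 20 was higher and 11 were lower at this threshold. Over all 1073 sequences 45 were then higher and 253 lower, so these shares turned with the scaling. DESeq2 called 1 of the 20 higher and 4 lower, beside 6.62% and 5.03%. The sources differ on the animals behind each library, as given above, and the p-values measure the spread between the 2 libraries of a group. With only 2 libraries per group, groups that do not overlap in CPM add little to a call. The groups also did not overlap for listed miRNAs that edgeR did not call, among them let-7a-5p, let-7c, miR-29a, miR-33a and miR-7.

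miR-223, best known as a myeloid miRNA, had 41 and 23 counts in the steer libraries and 223 and 281 in the bull libraries. After TMM normalisation these were 3.97 ± 1.82 CPM in steers and 29.8 ± 0.444 CPM in bulls (mean ± SD, n = 2 libraries). The groups did not overlap, and edgeR gave a log2FC of -2.91 (SE 0.56, adjusted p = 1.51e-05). Over 11 alternative fits it was called in 9, with an adjusted p between 1.71e-08 and 0.111. It was not called with total counts in place of TMM (log2FC -3.45, adjusted p = 0.0693 by edgeR) or without the second steer library (log2FC -2.46, adjusted p = 0.111 by edgeR). In the mRNA libraries 6 of 8 myeloid markers were past 2-fold lower in steers, and their part in the miR-223 difference was not tested.

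miR-33b, which is carried within the SREBF1 gene, had 155 and 98 counts in the steer libraries and 432 and 345 in the bull libraries, or 15.7 ± 5.97 and 47.1 ± 14.3 CPM (mean ± SD, n = 2). The groups did not overlap. Its log2FC was -1.59 (SE 0.49, edgeR adjusted p = 0.0149), and 6 of 11 alternatives called it (adjusted p 0.000673 to 0.652). Its relative miR-33a had 28 and 22 against 59 and 58 counts, a log2FC of -1.18 (SE 0.54, edgeR adjusted p = 0.125), which did not pass the test, although it did with the replicate number as a block (log2FC -1.19, edgeR adjusted p = 0.0207). The mRNA of SREBF1, which carries miR-33b, did not fall with it in the main scaling of the pooled libraries (log2FC 0.25, 0.15 to 0.34).

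miR-1, a miRNA of striated muscle, was counted 158 and 160 times in the steer libraries and 432 and 441 times in the bull libraries, or 19.5 ± 1.13 and 52.2 ± 6.98 CPM (mean ± SD, n = 2). The groups did not overlap, and the log2FC was -1.42 (SE 0.48, edgeR adjusted p = 0.0279; called in 5 of 11 alternatives, adjusted p 0.00216 to 0.585). miR-206, the muscle miRNA with the same seed, was counted 193 and 462 times in the steer libraries and 495 and 457 times in the bull libraries. Here the groups overlapped in CPM, and the log2FC of -0.54 (SE 0.46, edgeR adjusted p = 0.449) did not pass the test. Without the first steer library the log2FC of miR-206 was -0.04, and without the second it was -1.17. Skeletal muscle markers summed to a lower CPM in the steer mRNA library, with MYH1 past 2-fold higher and MYH7 and DES lower, as given above. Their part in the miR-1 difference was not tested.

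miR-126-3p, a miRNA of endothelium, was counted 11709 and 7300 times in the steer libraries and 30691 and 19919 times in the bull libraries, or 1177 ± 460 and 3098 ± 1361 CPM (mean ± SD, n = 2). The groups did not overlap. Its log2FC was -1.40 (SE 0.49, edgeR adjusted p = 0.0359), and this was the least stable of the calls, made in 4 of 11 alternatives (adjusted p 0.00125 to 0.837). Without the first bull library the log2FC was -0.67 (edgeR adjusted p = 0.393). The endothelial marker mRNAs had a median of -0.19, and their part in the miR-126-3p difference was not tested.

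**Figure D5:**
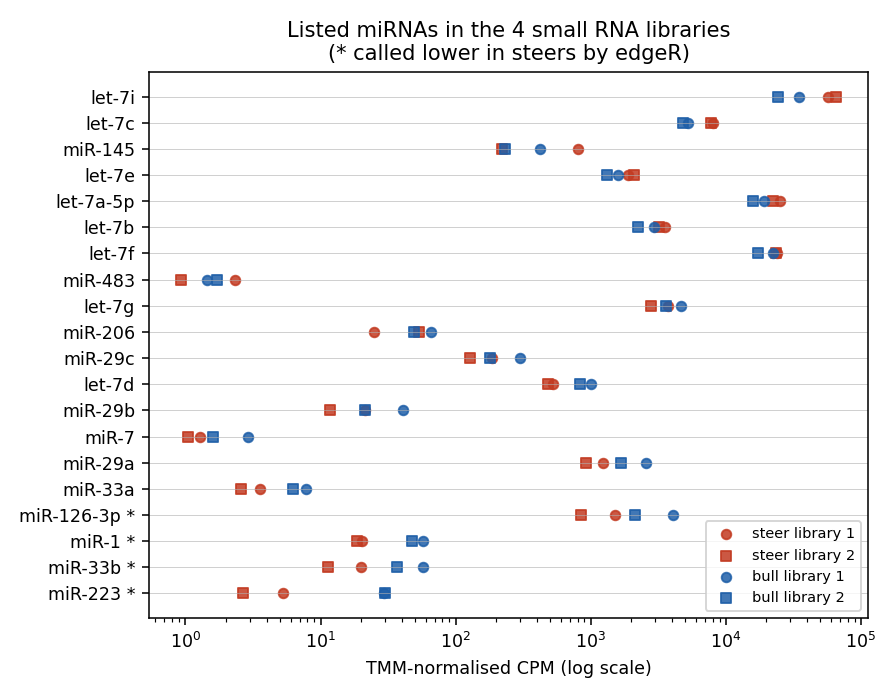
TMM-normalised CPM (log scale) of the 20 listed miRNAs in each of the 4 small RNA libraries, with steer libraries in red and bull libraries in blue, ordered by log2 fold change. Asterisks mark the 4 miRNAs called lower in steers, in which both steer points lie to the left of both bull points. The groups are also separate for miRNAs not called, such as miR-29a, miR-33a and let-7a-5p. For miR-483 the groups overlap.

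The let-7 miRNAs differed in sign. In the edgeR fit 6 of 8 members lay above 0 and let-7d and let-7g below it, and let-7a-5p, let-7b and let-7f turned below 0 when scaled by total counts. let-7i, the member with the most counts, reached 445701 and 558376 counts in the steer libraries and 262946 and 226079 in the bull libraries. Its CPM of 61197 ± 5662 and 29509 ± 7456 (mean ± SD, n = 2) did not overlap, and the log2FC of 1.05 (SE 0.43, edgeR adjusted p = 0.0808) did not pass the test; 4 of 11 alternatives, DESeq2 and the fit to known bovine miRNAs alone among them, called it higher. let-7d, at 4128 and 4141 counts in the steer libraries and 7612 and 7799 in the bull libraries, had a log2FC of -0.86 (SE 0.50, edgeR adjusted p = 0.248).

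miR-483 from within IGF2 was near the lower limit of the small RNA data, with 18 and 8 counts in the steer libraries and 11 and 16 in the bull libraries. The groups overlapped, at 1.62 ± 0.973 and 1.59 ± 0.184 CPM (mean ± SD, n = 2). Its log2FC was 0.02 (SE 0.64, edgeR adjusted p = 0.993), beside -0.03 for the IGF2 mRNA in the pooled libraries, and a change of miR-483 was not detected.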

How the data were processed

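The authors' mRNA counts, as deposited, came from Ion Proton reads that were trimmed and mapped by MapSplice to Bos 4.6.1. Which program counted them, and whether by strand, is not given in the sources used here. Reads of overlapping genes (AIRN with IGF2R, PGPEP1L with IGF1R, long non-coding genes with IGF1, IGF1R, INSR and GHR, MIR12053 with IRS1) therefore cannot be told apart. The deposited miRNA counts came from HiSeq reads for which BWA was used against miRBase and the genome. The submitters' processing notes also name a human build, GRCh37.p13, without its role.

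Here median-of-ratios size factors scaled the mRNA counts (numpy 2.4.6, scipy 1.17.1). miRNA counts were fitted with edgeR 4.0.16 in R 4.3.3 (TMM, filterByExpr, glmQLFit, glmQLFTest, Benjamini-Hochberg over all sequences), and DESeq2 1.42.0 was an alternative. The SE of each miRNA log2FC was derived here as the size of the log2FC divided by the square root of the quasi-likelihood F statistic. Intervals and floors cover counting error only. Both procedures were tested on simulated data. The members and lists were chosen with earlier results of these data known. Named genes are the members, the most abundant gene of each pathway list, and its genes past 2-fold (at most 6 per direction, at least 10 counts in each library), with the called miRNAs, miR-483 and the most abundant let-7; exceptions are stated, and the other miRNAs named by value (miR-33a, miR-206, let-7d) and PAPPA2 were added after their values were seen. Gene names, gene order and the IRS2 gene number came from RefSeq (ARS-UCD2.0), with no coordinates taken. Gene lengths, protein sequences and miRNA target sites were not used here. A withheld gene is not reported here.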

Additional observations from a re-analysis of the deposited data

How the results depend on the processing

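The count of insulin and IGF genes past 2-fold stayed at 0 in both directions under each alternative scaling, count minimum and call rule, changed singly. Their median log2 fold change was -0.27 with total counts, -0.33 with ACTB and RPS18 and -0.18 with totals without the 10 genes of most counts; these scalings shift all genes alike. Over all genes, against 822 higher and 1485 lower, ACTB and RPS18 gave 516 higher and 2174 lower, total counts 561 and 2021, a minimum of 50 counts 460 higher and 975 lower, a whole interval past 2-fold 376 and 772, an assumed biological coefficient of variation of 0.4 in edgeR's exact test 53 and 105, and a 1.5-fold threshold 1767 and 2302. With total counts or ACTB and RPS18, the carriers had 1 gene past 2-fold higher (IGFALS), and TBC1D1 among the kinases (with PRKCI under ACTB and RPS18 alone), INPP4B among the brakes (also with totals without the top 10) and EGR1 among the insulin-induced genes were past 2-fold lower in addition to the genes past it in the main scaling. Recomputing the marker lists, the members at 1.5-fold and the members whose interval excludes equal levels or lies within 2-fold under each scaling was chosen after the data had been seen. The planned ratio of AKT1 to AKT2 could not be made because AKT1 was not analysed here.

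For the miRNA list, the number called lower was 0 with total counts, 2 with upper-quartile factors and 1 with a filter of 1 count, and the number called higher was 1 with DESeq2 and 1 with known bovine miRNAs alone. Leaving out each library in turn gave 0 to 4 lower and 0 to 1 higher, where the lone library left in a group was assumed to vary like the others; the 0 came without the second steer library, and without the first steer library or the first bull library 1 was lower. Same-numbered libraries of the groups deviated together (r = 0.30 over all sequences), but 2 pairs share only a number. With the replicate number as a block (replicate block), 1 of the list was higher (let-7i) and 5 lower (miR-33a and the 4 called without it), and over all sequences 133 were higher and 119 lower, beside 76 and 76, of 1073 tested in each. Over all sequences tested total counts called 1 higher and 0 lower, with 298 at an unadjusted p under 0.05, beside 293 with TMM; a filter of 1 count called 34 and 36 of 8303 tested, DESeq2 71 and 54, upper-quartile factors 101 and 52, known bovine miRNAs alone 39 and 36 of 396, and leaving out the second steer library 20 and 6 of 1184, the first steer library 47 and 14 of 1252, the first bull library 110 and 41 of 1284 and the second bull library 54 and 45 of 1209. Of the 298 with total counts, 45 lay above 0 and 253 below, beside 147 and 146 of the 293 with TMM. The sign turned for let-7a-5p (-0.035), let-7b (-0.073), let-7f (-0.20) and miR-483 (-0.53) with total counts. It also turned for miR-483 with a filter of 1 count (-0.056) and with the replicate block (-0.058). Over the fits that left out a library, log2 fold changes ran from -0.70 to 0.58 for miR-483 and from -0.54 to 1.32 for miR-145. They ran from -0.55 to 0.050 for let-7g and from -1.17 to -0.039 for miR-206. None of these miRNAs was called in any fit. The causes were not tested.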
